A study of Mus musculus with 4 samples.

Results

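The step from 0.5 h to 2 h of tumour necrosis factor (TNF), an inflammatory cytokine, was followed in 3T3 cells, an immortal fibroblast line from mouse embryos. The series has 4 microarrays, 1 per time: untreated (basal) cells and cells after 0.5, 2 and 12 h of TNF; all cells were the same line, grew in 10% calf serum, were plated at low density for 24 h and then spent the night in 0.5% serum. No untreated array was matched to the later times. The ratio described here is that of the 2 h array to the 0.5 h array; the basal and 12 h arrays are given beside it and do not enter it. For the 0.5 h cells the labels give 10 ng/ml of TNF, while the treatment text of the 2 h sample is the basal one and states no dose, so its place at 2 h rests on its title and source name. A gene was a member if its signal reached 102, the 75th percentile of all values, on either array. Of 18193 named genes 7029 were members: 6542 reached the signal on both arrays, 292 at 0.5 h only and 195 at 2 h only. The genes just inside and just outside this limit were Atr (81.2 at 0.5 h and 102.1 at 2 h) and B9d1 (101.97 and 92.4).

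TNF binds a receptor that frees NF-kB, a transcription factor held in the cytoplasm by IkB proteins, and also activates MAP kinases that act on immediate early genes. Immediate early genes are transcribed within minutes from factors already in the cell, and many of their mRNAs carry AU-rich elements in the 3' end that mark them for rapid decay. Zfp36 encodes tristetraprolin, a protein that binds such elements and recruits the deadenylation machinery. The title of the series asks how mRNA stability shapes the order of inflammatory gene induction. The arrays measured RNA levels; synthesis and decay were not separated, and in bulk RNA fewer responding cells and less RNA per cell cannot be told apart.

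With 1 array at each time there is no replicate error and 0 tests were run. A gene is called higher or lower, or is said to have risen or fallen, where the signals differed at least 2-fold; other differences are given as values. The step raised 36 of 7029 members (0.512%) and lowered 36 (0.512%), while 6748 members (96.0%) differed by less than 1.5-fold. The counts for each gene list are to be read beside these shares of 0.512%. The median log2 ratio was -0.07, with the 1st and 99th percentiles at -0.81 and 0.69. Scatter shrank with signal: the scaled median absolute deviation of the log2 ratio was 0.24 for members with a mean signal between 100 and 200, 0.18 between 200 and 400 and 0.08 above 1600. For the 205 members with a mean signal under 100 it was 0.56, and 12.7% of them were called (15 higher and 11 lower). Each of these 205 reached 102 on only 1 array, so its signals had to differ. Of the 36 rises 22 had a 0.5 h signal under 102, and 18 of the 36 falls had a 2 h signal under it; such a gene entered through its higher array and had to differ. With both signals first raised to 102, 19 genes were higher (0.27%) and 22 lower (0.313%). The split of 36 and 36 became 41 and 31 after each array was centred on its median, 42 and 25 after quantile normalization, and 43 and 25 after loess. Members below 0 made up 66.7% as deposited and 56.3%, 49.9% and 50.6% after these 3 scalings. The falls lost with loess all lay between -1.07 and -1.01 before it. The nearest genes inside and outside the limit were Sod3 (1.02) and Nipal1 (0.99) for rises, and Naa16 (-1.01) and Zfp568 (-0.99) for falls. Ratios of 3' to 5' signal for Actb were 1.24 on both arrays, while 18S rRNA read 382 and then 273 at its 5' probe set; the part of this in the results was not tested. The 10 markers of fibroblasts summed to 36124 at 0.5 h and 36126 at 2 h. Of these 8 reached 102, but Dcn (2.09 and 9.86) and Thy1 (11.1 and 14.6) did not. The 9 markers of macrophages and leukocytes on the array summed to 289.7 and 300.2. Of them 3 were under the low-signal floor of 9.08 (the 30th percentile) on each array. Cd14 was the only marker of this list to reach 102, at 111.2 and then 93.5. The 8 of endothelium summed to 112 and 137, with 3 and then 2 under the floor. The 7 of epithelium summed to 122 and 124, with 1 and then 0 under it. The 5 of adipocytes summed to 1939 and 1729, of which Fabp4 gave 1886 and 1639, with 2 and then 1 under it.

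**Figure D1:**
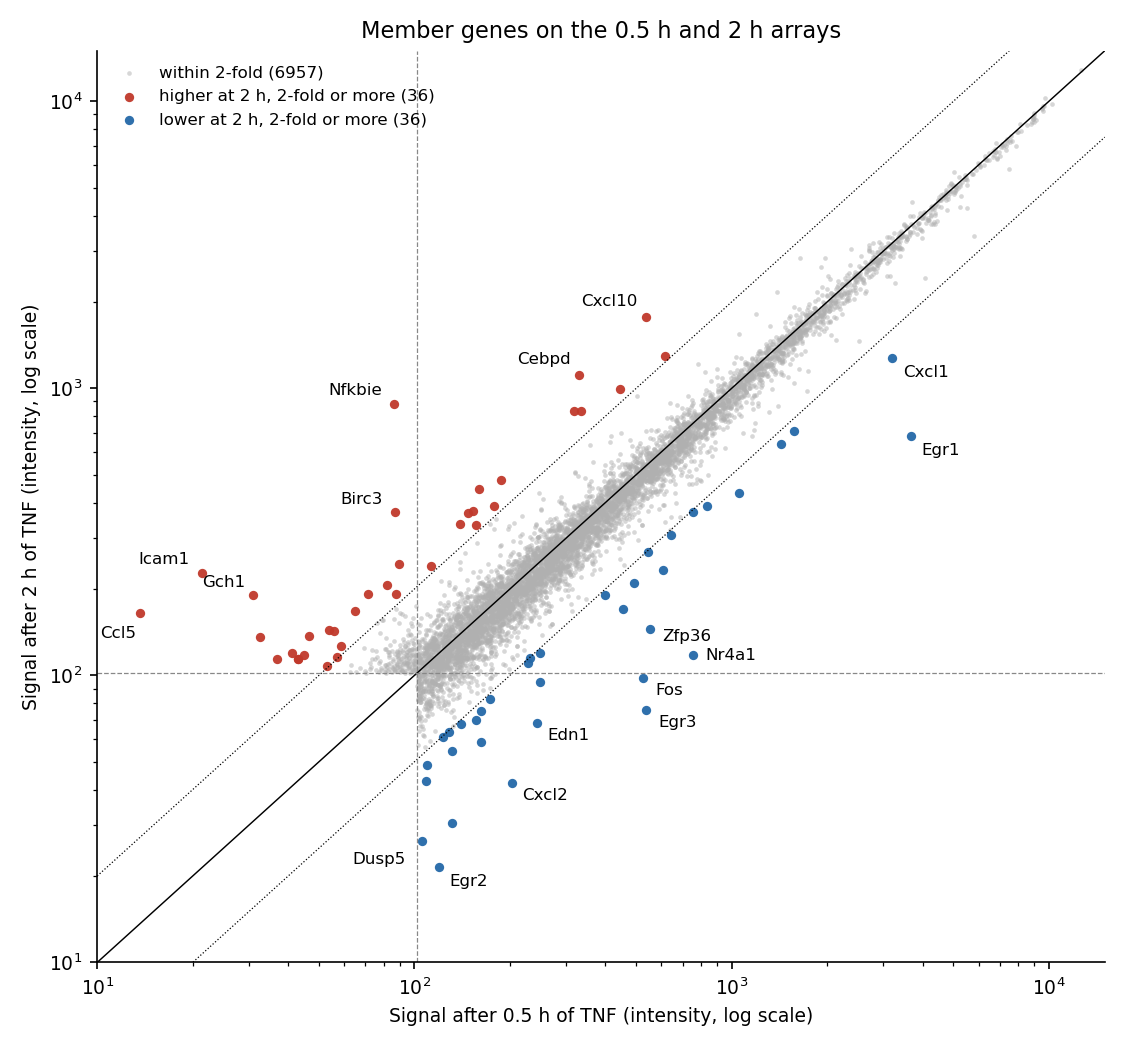
Signal of each of the 7029 members after 0.5 h (x axis) and 2 h of TNF (y axis), in linear intensity on log scales, 1 point per gene. The solid line marks equal signal, the dotted lines a 2-fold difference and the dashed lines the signal of 102; 36 genes lie above the upper dotted line (red) and 36 below the lower one (blue), with Nfkbie, Icam1 and Ccl5 farthest above and Egr3, Nr4a1 and Egr1 among those farthest below.

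The deepest falls were in the EGR and Nr4a1 genes and in Fos. Of 20 immediate early transcription factors that were members, 8 fell and 0 rose (0.512% of all members fell). The median log2 ratio of the list was -0.65 against -0.07 for all members, and 18 of the 20 were below 0 against 66.7% of all members; with loess the list's median was -0.58. This list and the others were drawn up with earlier results of these arrays known. Egr3 (1436329_at), a zinc finger factor, gave 448 on the basal array, then 537, 75.5 and 15.04 at the 3 later times, a 7.11-fold fall over the step. Its other probe set, of low signal, went from 35.5 to 31.3. Nr4a1 (1416505_at), an orphan nuclear receptor, went from 736 and 753 to 117 and then 46.1, a 6.42-fold fall. Both genes were already high in basal cells, and their 2 h signals lay well under the basal ones.

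Egr1 (1417065_at), the founding factor of its family, was at 2174, 3688, 681 and 325 on the 4 arrays and fell 5.42-fold. Fos (1423100_at), a subunit of the AP-1 factor, was at 151, 526, 97.9 and 22.6 and fell 5.38-fold. Egr2 (1427683_at) was at 81.9, 119.8, 21.5 and 14.4, and its other probe set dropped further, by 3.21 on the log2 scale. With both signals raised to 102 the chosen probe set is at -0.23. Egr1, Fos and Egr2 were highest at 0.5 h and were below their basal signal at 2 h and again lower at 12 h. Klf2 fell 2.66-fold from 453 to 170.0, and Csrnp1, a nuclear protein gene of the early response, fell 2.77-fold from 162 to 58.7, or by 0.67 on the log2 scale with both signals raised to 102. On that scale 6 of the 20 members fell in place of 8. Klf10, a factor induced by TGF-beta, fell from 755 to 372, a log2 ratio of -1.02 that was -0.98 with median centring and -0.95 with loess. The members that did not pass included the other AP-1 genes. Junb went from 688 to 356 (-0.95), Jun from 803 to 474 (-0.76) and Fosl1 from 622 to 439 (-0.50), whereas Fosl2 stood at 789 and 816 (0.05) and Jund at 748 and 666 (-0.17). Among the AP-1 members the step thus spanned log2 ratios from -2.43 for Fos to 0.05 for Fosl2.

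The pace of these falls can be written as the time that would halve the signal if the drop over 1.5 h were exponential. This time was 0.53 h for Egr3, 0.559 h for Nr4a1, 0.615 h for Egr1 and 0.618 h for Fos. It was 0.662 h for Cxcl2, 0.78 h for Zfp36, 0.817 h for Edn1, 1.13 h for Cxcl1 and 1.37 h for Nfkbiz. It is a net rate that includes any new synthesis after 0.5 h, and it is not a measured half-life. It also takes no account of the basal signal: Edn1 was at 68.2 at 2 h and 66.8 in basal cells, so its time depends on that end point. The 2 h signals of Egr3 (75.5), Fos (97.9), Cxcl2 (42.2) and Edn1 were under 102. With both signals raised to 102 the log2 ratio was -2.68 for Nr4a1, -2.40 for Egr3 and -0.99 for Cxcl2. The order of these times therefore depends on dim signals.

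Other genes of the early response fell as well, by less. Of 24 such members 6 fell and 0 rose (0.512% of all members fell), with a median log2 ratio of -0.47. Of the 24, 21 were below 0, against 66.7% of all members. With quantile normalization or loess 4 of them fell. Ier2 (1416442_at) was at 294, 606, 234 and 134 over the 4 arrays and fell 2.59-fold. Errfi1, an inhibitor of the EGF receptor, fell 2.44-fold from 1057 to 432, and Phlda1 2.24-fold from 1434 to 641. Hes1, a target of Notch, fell from 131 to 54.5 (-1.27), with both of its later signals under 102 and a ratio of -0.36 with both raised to 102. Spry2, a brake on receptor tyrosine kinase signalling, fell from 249 to 119.5, and Btg2, an antiproliferative gene, from 228 to 110.4. With loess Spry2 was at -0.99 and Btg2 at -0.98, while the other Btg2 probe set gave -1.42 without it. Ier3, a stress-induced survival gene, was at 4064 and 2431 (-0.74), Gadd45b at 1214 and 866 (-0.49), and the matrix signalling gene Ccn1 at 5816 and 3383 (-0.78). Rnd1, a small GTPase gene, stood at 515 and 590 (0.20), so not every early gene had turned down by 2 h. Among the phosphatases that inactivate MAP kinases, Dusp5 fell from 106.0 to 26.4, Dusp1 went from 1727 to 980.3 (-0.82), and Dusp16 was at 158 and 159. Dusp5 reached the signal of 102 only just and only at 0.5 h, so that its ratio is -0.06 once both signals are raised to 102.

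Zfp36 was the only 1 of 20 regulators of mRNA decay to fall, and 0 rose. Its signal (1452519_a_at) began at 95.6 in basal cells, reached 552 at 0.5 h, and was 145 and then 79.3 at the later times, a 3.79-fold fall over the step that left 10.9% of the gain made by 0.5 h. Its relatives moved less: Zfp36l2 went from 2140 to 1472 (-0.54) and Zfp36l1 from 298 to 236 (-0.33). The deadenylase subunit genes Cnot7 (689 and 632) and Cnot6 (596 and 521), the nuclease gene Parn (135 and 111) and the RNA-binding protein gene Elavl1 (694 and 679) were all within 1.5-fold. The decapping enzyme gene Dcp2, at 154 and 197, had the highest log2 ratio of the list (0.35). The 250 bases before the Zfp36 start site are shown because they hold a CArG box, the element read by serum response factor, 58 to 49 bases before the start. It is in capitals; sequences are from RefSeq (GRCm38.p6) and run 5' to 3' along the gene.
Zfp36 (chr7:28379229-28379478, - strand): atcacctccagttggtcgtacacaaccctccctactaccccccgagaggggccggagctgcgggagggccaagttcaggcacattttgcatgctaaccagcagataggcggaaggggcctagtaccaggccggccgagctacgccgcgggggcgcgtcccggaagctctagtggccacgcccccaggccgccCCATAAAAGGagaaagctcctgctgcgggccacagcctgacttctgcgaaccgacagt

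The chemokine genes past 2-fold went in opposite directions. Of 6 CXC and CX3C members 2 rose and 2 fell, and of 6 CC members 1 rose and 0 fell, against 0.512% of all members each way. The list medians were -0.01 (0.03 with median centring, so without a direction) and 0.75. Cxcl1 (1419209_at), a chemokine for neutrophils, was at 151, 3211, 1278 and 658 on the 4 arrays and fell 2.51-fold over the step, with 36.8% of its gain left at 2 h. Its other probe sets gave log2 ratios of -1.49 and -1.37 against -1.33. Cxcl2 (1449984_at), also for neutrophils, was under the floor of 9.08 in basal cells and at 203, 42.2 and 10.6 afterwards, a 4.80-fold fall; with both signals raised to 102 its ratio is -0.99, just short of 2-fold. Their relative Cxcl5 did not follow them, at 1834 and 1909 (0.06). Cxcl12, a chemokine gene of stromal cells, stood at 893 and 841 (-0.09). The CXC and CX3C members that rose were Cxcl10 and Cx3cl1. Cxcl10 (1418930_at) was at 66.6, 535, 1777 and 780.3 and rose 3.32-fold over the step, and Cx3cl1 (1415803_at), which is made as a membrane-bound chemokine, was at 179, 318, 834 and 475 and rose 2.62-fold. Both were highest at 2 h. The other Cx3cl1 probe set of clear signal went from 77.7 to 139.7 (0.85), short of 2-fold, and its dim probe sets pointed both ways.

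Ccl5 (1418126_at), which attracts T cells and monocytes, had the largest log2 ratio of all members (3.60). It was under the floor in basal cells and at 13.6, 165 and 957 at the later times, so that most of its increase came after 2 h; with both signals raised to 102 its ratio is 0.69. The monocyte chemokine genes Ccl2 (1641 and 2851, 0.80) and Ccl7 (417 and 681, 0.71) and the macrophage chemokine gene Ccl9 (69.4 and 124, 0.84) were higher at 2 h without reaching 2-fold. Ccl20 stood at 584 and 714 (0.29). All 6 CC members were above 0, against 33.3% of all members. The bases before the start sites of Cxcl1 and Cxcl10 are shown because a match to the NF-kB consensus lies near the start of a chemokine gene that fell and of one that rose. The match, in capitals, spans bases 71 to 62 before the start in Cxcl1, and 2 overlapping matches span bases 104 to 94 before it in Cxcl10.
Cxcl1 (chr5:90890995-90891244, + strand): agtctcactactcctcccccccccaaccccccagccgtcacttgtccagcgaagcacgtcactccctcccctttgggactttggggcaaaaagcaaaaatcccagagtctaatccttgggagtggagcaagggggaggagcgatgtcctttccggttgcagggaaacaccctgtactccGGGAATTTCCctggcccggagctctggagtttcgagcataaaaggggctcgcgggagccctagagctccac
Cxcl10 (chr5:92348890-92349139, - strand): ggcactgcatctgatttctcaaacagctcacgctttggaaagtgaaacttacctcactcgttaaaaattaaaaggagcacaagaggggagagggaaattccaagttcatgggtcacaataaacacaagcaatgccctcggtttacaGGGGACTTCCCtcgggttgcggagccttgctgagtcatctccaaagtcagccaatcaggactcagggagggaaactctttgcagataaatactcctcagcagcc

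**Figure D2:**
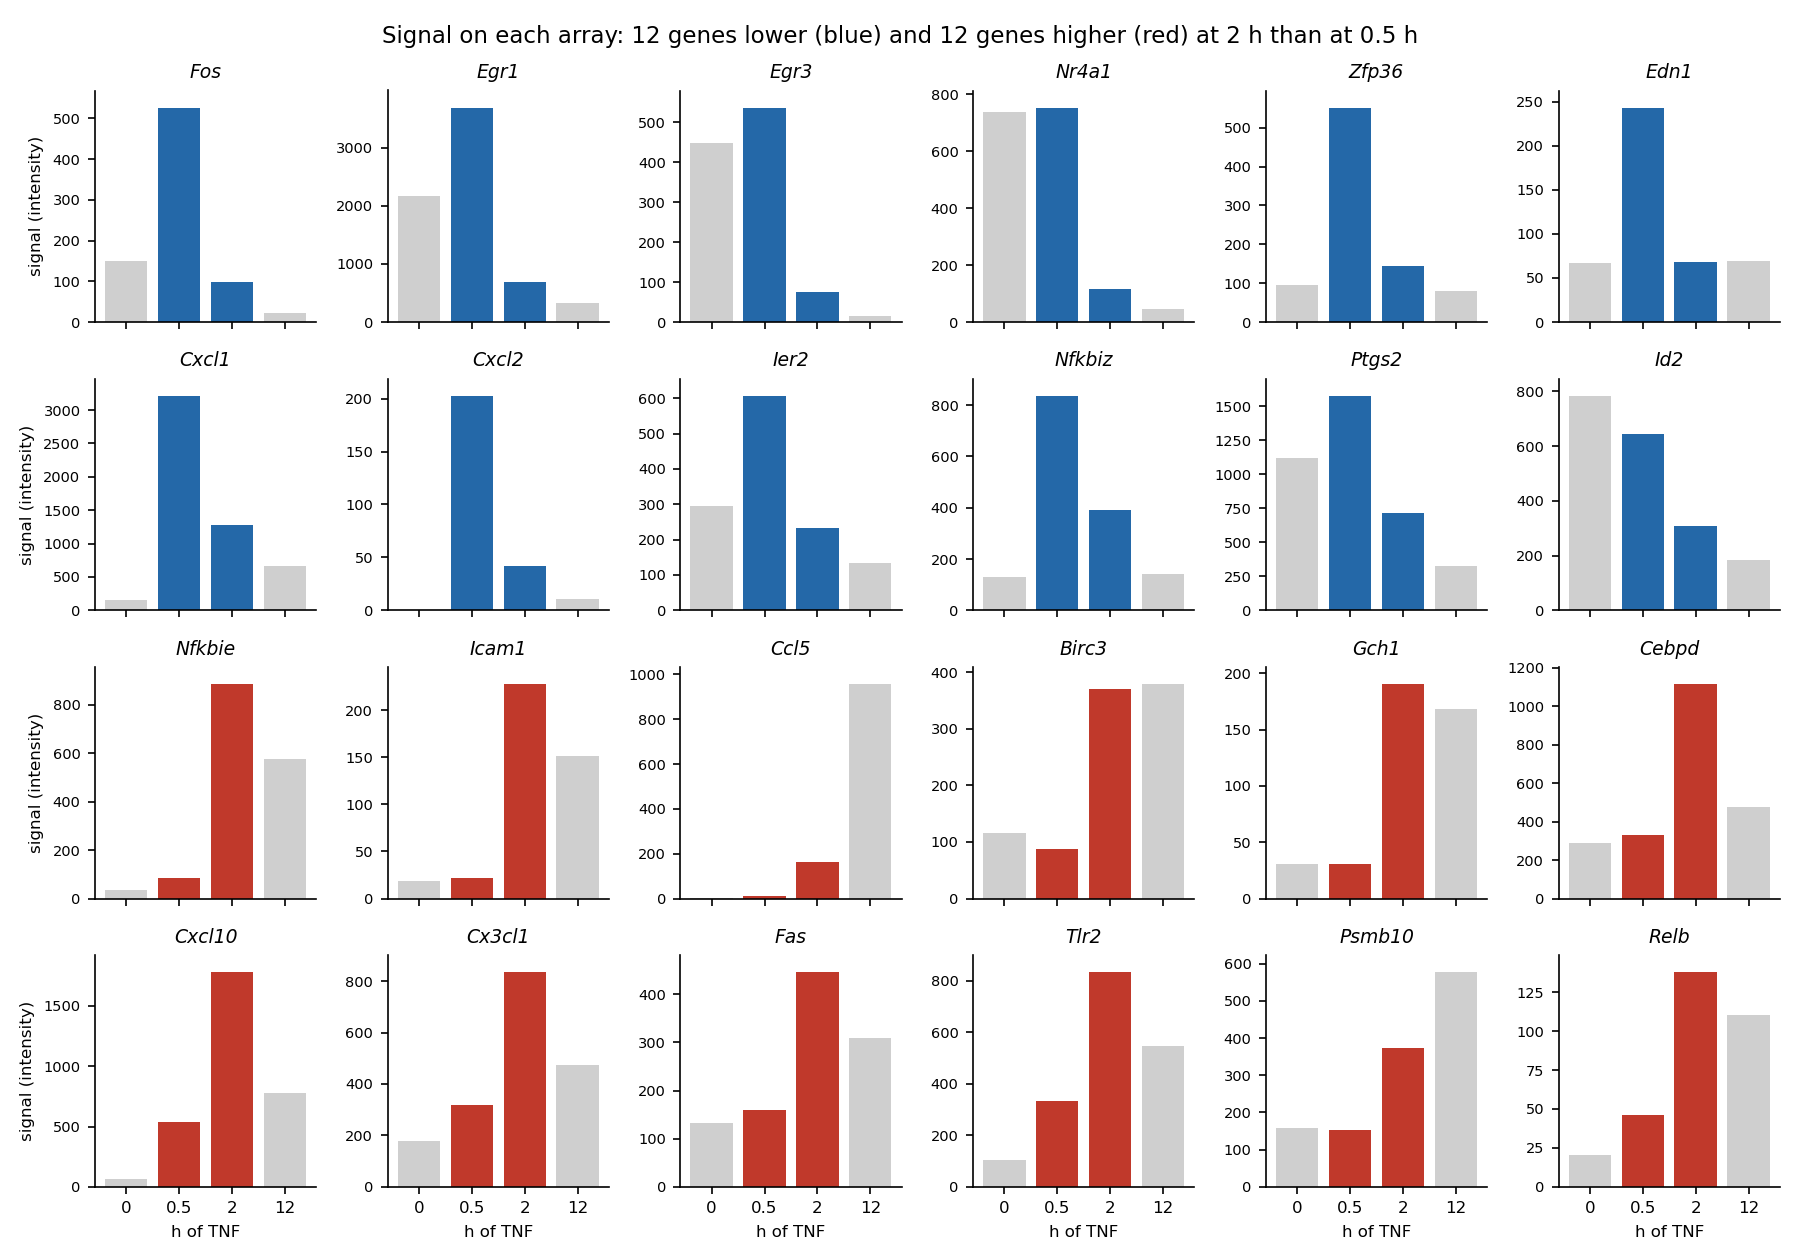
Linear signal (intensity, y axes from 0 and differing between panels) of 24 genes on the 4 arrays, at 0 (basal), 0.5, 2 and 12 h of TNF, 1 array each and hence no error bars; coloured bars are the arrays of the ratio. In the upper 12 genes (blue) the 2 h bar is at most 0.479 of the 0.5 h bar, and in the lower 12 (red) it is at least 2.44 times as high; Cxcl10, Icam1 and Nfkbie were highest at 2 h, Ccl5 and Psmb10 at 12 h.

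Of 11 members of the list of inhibitors and A20 partners, Nfkbie rose, Nfkbiz fell and the other 9 did neither. Nfkbie (1458299_s_at), encoding IkB-epsilon, was at 36.5, 86.4, 885 and 576 and rose 10.2-fold over the step; its second probe set rose by 2.86 on the log2 scale, from 47.5 to 345. Nfkbiz (1417483_at), encoding the nuclear protein IkB-zeta, was at 132, 836, 390.3 and 141 and fell 2.14-fold. Its other probe sets gave -0.91 and -0.63, and the mean of all of them was -0.88, short of 2-fold. Nfkbia, encoding the first-acting inhibitor IkB-alpha, remained high at 7476 and 5826 (-0.36), and Tnfaip3, encoding the deubiquitinating enzyme A20, went from 2521 to 1463 (-0.79). Tnip1, which encodes a partner of A20, was at 255 and 410 (0.69). Nfkbib, encoding IkB-beta, was at 91.6 and 115 (0.33), and the deubiquitinase gene Cyld at 287 and 282 (-0.03).

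Of 3 NF-kB subunit members, the genes of the noncanonical subunits rose and Rela did not. Relb (1417856_at) was at 20.2, 46.4, 138 and 110.4 and rose 2.97-fold, and Nfkb2 (1425902_a_at), encoding the precursor p100, was at 83.1, 113, 240.5 and 235 and rose 2.13-fold. Relb reached 102 at 2 h but not at 0.5 h, and with both signals raised to 102 its ratio is 0.43. The second Nfkb2 probe set went from 84.0 to 131 (0.64), and the mean of both was 0.86. Rela, encoding p65, was at 685 and 643 (-0.09). The bases before the first of 3 listed Nfkb2 start sites are shown because they hold 2 matches to the NF-kB consensus, in capitals, the last of them ending 2 bases before the start.
Nfkb2 (chr19:46304487-46304736, + strand): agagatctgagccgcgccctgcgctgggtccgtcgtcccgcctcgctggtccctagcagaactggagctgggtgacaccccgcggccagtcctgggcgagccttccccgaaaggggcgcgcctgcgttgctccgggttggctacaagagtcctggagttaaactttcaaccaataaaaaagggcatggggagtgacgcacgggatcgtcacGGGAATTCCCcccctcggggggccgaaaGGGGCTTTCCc

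Genes that let fibroblasts bind leukocytes or sense danger were among the rises. Of 11 adhesion members 2 rose and 0 fell, against 0.512% of all members each way. Icam1 (1424067_at), the ligand of leukocyte integrins, was at 19.1 in basal cells and 21.5 at 0.5 h, then 228 at 2 h and 152 at 12 h, a 10.6-fold rise over the step. Its first signals were near the median of all probe sets (22.1 and 21.3), and with both signals raised to 102 its log2 ratio is 1.16. Vcam1 (1448162_at) was at 269, 618, 1293 and 973 and rose 2.09-fold; its other probe sets gave 0.89 and 0.52, and the mean of the 3 was 0.83. Cd44, a hyaluronan receptor gene, was at 1389 and 2165 (0.64), while the integrin genes Itgav and Itgb1 had ratios of -0.02 and 0.05.

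Of 14 members of TNF and Toll-like receptor signalling 3 rose and 0 fell, against 0.512% of all members each way. Fas (1460251_at), a death receptor gene, was at 132, 159.7, 445 and 309.9 and rose 2.79-fold. Tlr2 (1419132_at), which encodes a receptor for bacterial lipoproteins, was at 104, 335, 833 and 546 and rose 2.49-fold. Tnfaip2 rose 2.49-fold from 148 to 368, and by 1.04 (log2) on its second probe set of clear signal. The kinase gene Irak1 was at 322 and 511 (0.67), but its relative Irak2 went the other way, from 205 to 114 (-0.85). Among 13 survival and death members 2 rose and 0 fell, beside the same 0.512% of all members. Birc3 (1421392_a_at), an inhibitor of apoptosis that acts at the TNF receptor, was at 115, 87.2, 370.1 and 379 and rose 4.25-fold. Bid, which links death receptors to mitochondria, rose 2.25-fold from 443 to 996, with 0.93 for the mean of its 3 probe sets. Birc2 was at 218 and 359 (0.72) and Sod2, a mitochondrial antioxidant enzyme gene, at 1468 and 1633 (0.15).

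Among the secreted factors the genes of both vasoactive peptides that were members fell. Of 16 cytokine, growth factor and vasoactive peptide members 2 fell and 0 rose, with a median of -0.34; 11 of the 16 were below 0, a share close to the 66.7% of all members. Edn1 (1451924_a_at), encoding the vasoconstrictor endothelin 1, was at 66.8, 243, 68.2 and 69.5, a 3.57-fold fall that left 0.8% of its early gain. It was thus back at its basal signal by 2 h and still there at 12 h. Adm, encoding the vasodilator adrenomedullin, fell 2.34-fold from 492 to 210.4, and by 0.97 on its other probe set. Hbegf (458 and 243, -0.92), Lif (222 and 122, -0.86), Inhba (508 and 297, -0.77) and Ereg (772 and 468, -0.72) were lower without passing 2-fold. Pdgfb (447 and 699, 0.65) and Csf1 (1912 and 2655, 0.47), a growth factor for macrophages, had the highest ratios of the list. Ptgs2 (1417262_at), the inducible cyclooxygenase gene of prostaglandin synthesis, was at 1116, 1574, 712 and 328 and fell 2.21-fold, with -1.18 on its second probe set. The other members of that list, the prostaglandin receptor gene Ptger4 and the phospholipase gene Pla2g4a, had ratios of -0.56 and -0.11.

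Of 12 members among the targets of TGF-beta and BMP signalling, 1 fell and 0 rose, and 0 passed 2-fold with quantile normalization or loess. The list's median was -0.51 (-0.44 with loess), and 10 of the 12 were below 0, against 66.7% of all members. Id2 (1435176_a_at), an inhibitor of basic helix-loop-helix factors, was at 784, 644, 309 and 182 and fell 2.09-fold; it was at -0.99 with loess and at -0.84 for the mean of its probe sets. Id1 (736 and 464, -0.66), Id3 (1739 and 1152, -0.59), Smad6 (522 and 334, -0.64) and Snai2 (1577 and 1044, -0.59) did not pass 2-fold. Unlike Fos or Edn1, Id2 was not above its basal signal at 0.5 h.

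Of 9 interferon-response members 1 rose and 0 fell, against 0.512% of all members in each direction, with a median of 0.65. The count that rose was 2 with median centring and 3 with quantile normalization or loess. Ifi47, an interferon-inducible GTPase gene, went from 36.8 to 114 and rose 3.09-fold, but its first signal was low and its ratio is 0.16 with both raised to 102. Irgm1 (181 and 350.1, 0.95) and the feedback inhibitor gene Socs3 (173 and 337, 0.96) came close to 2-fold, and Irf1, the transcription factor of the list that TNF induces early, was at 949.5 and 621 (-0.61). Of 6 members of MHC class I presentation Psmb10 (1448632_at), an immunoproteasome subunit gene, rose 2.44-fold; its signals were 159, 153, 373 and 577. Tapbp (1192 and 1815, 0.61) and H2-D1 (290.1 and 403, 0.47) were below 2-fold. Of 13 metalloproteinase and inhibitor members the collagenase gene Mmp13 rose 2.57-fold, from 55.6 to 143 and on to 437 at 12 h, and with both signals raised to 102 it is at 0.49. The list had 2 rises under each of the 3 scalings. Adamts4 was at 87.2 and 171 (0.97) and Adamts1 at 1177 and 716 (-0.72).

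Several leading rises stood in no list but the rule for named genes gave them. Cebpd (1423233_at), a C/EBP transcription factor gene of the acute phase response, was at 288, 330.3, 1114 and 474 and rose 3.37-fold. Stx11, which encodes a syntaxin of vesicle fusion, was at 114, 187, 479 and 198 (2.56-fold over the step), and S1pr3, a receptor gene for sphingosine 1-phosphate, at 103, 139, 338 and 286 (2.42-fold). Fbxl5, whose protein senses iron and directs iron regulatory protein to degradation, rose 2.19-fold from 178 to 389.7. Hivep1, a zinc finger gene of the kB-binding HIVEP family, rose 2.73-fold from 89.5 to 245. Its relatives Hivep2 (53.7 to 144) and Hivep3 (65.0 to 167) rose 2.69-fold and 2.57-fold. They were named after their values were seen, and with both signals raised to 102 they are at 0.50 and 0.71. The other Hivep2 probe set went from 51.3 to 85.9 (0.74), and the other Hivep3 probe sets, all dim, pointed both ways. Gch1, also named after its value was seen, encodes the first enzyme of tetrahydrobiopterin synthesis and was at 30.5, 31.0, 190.4 and 168, a 6.14-fold rise, with 1.83 (log2) on its second probe set and 0.90 with both signals raised to 102.

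The 17 collagen and matrix members lay between -0.11 and 0.27 with 0 called, and the 9 reference genes had a median of -0.05. The 18 ribosomal protein members had a median of -0.04. Rps27, 1 of them, went from 249 to 95.1 on its only probe set, a 2.62-fold fall, while the others lay between -0.11 and 0.18. Its signal was far under those of the other ribosomal protein members, apart from Rps6 (386 and 387). The 18 contractile and SRF target members had a median of -0.03 (0.01 with loess); Ankrd1 fell from 232 to 115, at -0.94 with loess, and Lmcd1 went from 347 to 184 (-0.92). No gene was called among 14 members of cholesterol synthesis (median -0.08), 11 of oxidative stress and metallothioneins (0.04), 12 of the unfolded protein response (-0.04), 11 of heat shock (-0.10) or 3 of complement and the acute phase (0.38). Near the limit in these lists were Mt2, a metal-binding protein gene, at 503 and 943 (0.91), and Ddit4, an inhibitor of mTOR, at -0.99. The genes of the G2/M phase were all slightly lower. Of 21 members 0 were called and 21 were below 0, against 66.7% of all members, with a median of -0.29 and a lowest value of -0.62. With loess 20 of 21 were below 0, against 50.6% of all members, and the median was -0.23. The 21 G1/S and replication members had a median of -0.15.

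**Figure D3:**
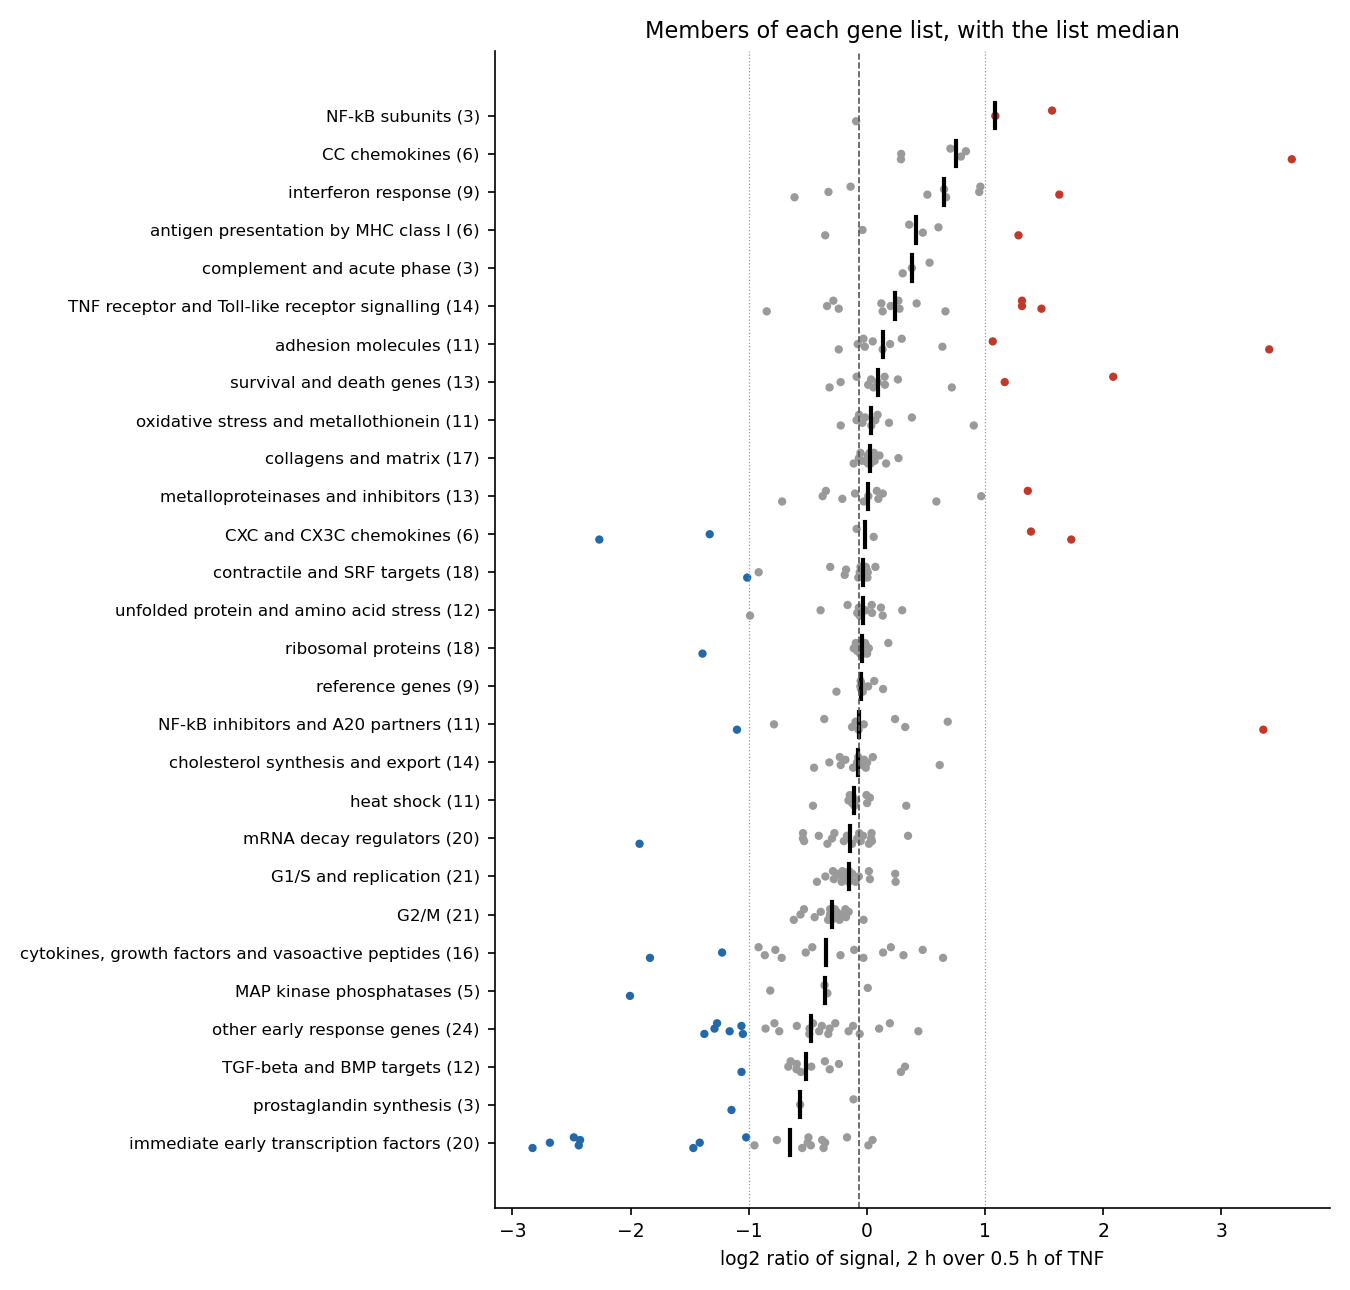
The log2 ratio of 2 h to 0.5 h signal (x axis) for the members of the 28 gene lists drawn (y axis, number of members in brackets), which leave out the 6 markers of the step and the cell type markers; a point is a gene, a black bar the list median, the dashed line the median of all members (-0.07) and the dotted lines 2-fold. Of these lists, immediate early factors have the lowest median (-0.65) and NF-kB subunits the highest (1.09, from 3 genes), and calls (red higher, blue lower) in both directions occur in the CXC chemokines and the NF-kB inhibitors.

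Further probe sets of the same genes gave a check within each array that does not stand in for replicates. Among the 36 rises 6 genes had others that reached 102, and all 8 of these probe sets pointed up, 2 of them past 2-fold. Among the 36 falls 10 genes had others, and all 14 pointed down, 7 of them past 2-fold. Of other probe sets below that signal 17 of 21 pointed the same way for rises and 8 of 13 for falls. As deposited, 33.3% of all members were above 0 and 66.7% below, so the 8 of 13 lay close to the share of all members. Birc3 (-0.89) and Spry2 (0.38) were among the genes with a dim probe set of the opposite sign. The other Naa16 probe set was not dim: it read 86.6 and 95.7 (0.14), against 123 and 61.0 on the chosen one. With the probe set chosen by the 2 arrays of the ratio, the fall of Naa16 was not called.

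**Figure D4:**
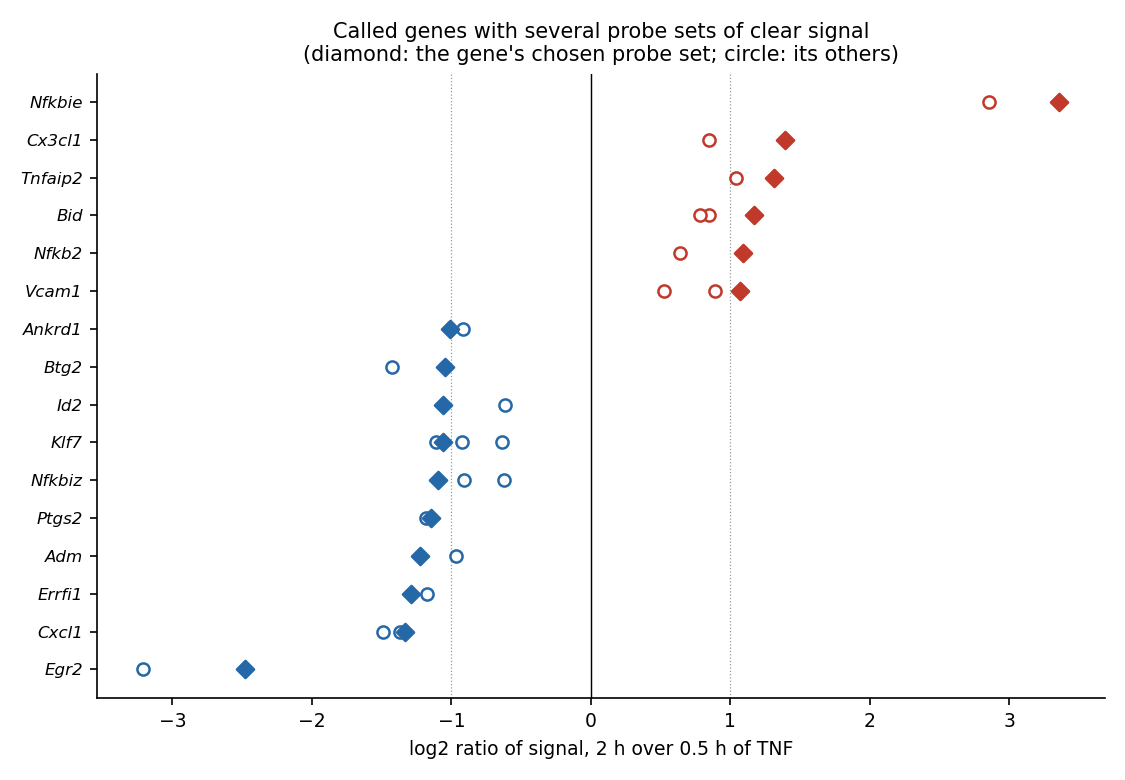
The log2 ratio of 2 h to 0.5 h signal (x axis) for every probe set that reached 102 in the 16 called genes with more than 1 of them (y axis). Diamonds mark the probe set used for the gene and circles the others; all circles lie on the same side of 0 as their diamond, and the circle nearest to 0 is one of Vcam1 (0.52).

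Promoter letters were compared for the called genes, as a description without a test. RefSeq windows from 250 bases before to 50 after a start site were found for 28 of the 36 genes that rose and 29 of the 36 that fell. The NF-kB consensus was matched on either strand in 7 of the 28 (25%) and in 6 of the 29 (20.7%), against 8.25% of 5791 members with a window and 6.55% of all 27025 genes in the table. A CArG box occurred in 0 of the 28 and in 3 of the 29 (10.3%), namely Zfp36, Egr2 and Dusp5, against 1.71% of members and 1.81% of all genes. The AP-1 letters TGANTCA occurred in 5 of the 28 (17.9%) and 3 of the 29 (10.3%), against 5.44% of members. The letters TATAAA were in 7 of the 28 (25%) and 2 of the 29 (6.90%), against 8.46% of members, and TGACGTCA was in 0 and 3 (10.3%), against 3.92%. A gene with several start sites has several windows and counted if any of them matched. The 28 genes that rose had 32 windows and the 29 that fell had 45. Per window the NF-kB consensus was matched in 28.1% for rises and 15.6% for falls, against 7.02% of the windows of members. The 5 motifs were searched separately, and a match here is not evidence of binding.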

How the data were processed

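Total RNA (8 µg) of each sample was labelled and hybridised to a whole-genome Affymetrix mouse array, per the labels' protocols. The authors deposited a linear intensity for each probe set of each array; no source used here gives the signal algorithm or the scaling. Of 45101 probe sets, the annotation gave 1 gene for 34945 and several for 932, and the latter named no gene; 34741 matched RefSeq (GRCm38.p6) gene IDs. Where a gene had several probe sets, the brightest (mean log2 signal over all 4 arrays) stood for it. The ratio was taken with signals under 9.08 (30th percentile) raised to that floor, which 0 members needed. The signal of 102 is the 75th percentile. Python 3.11.15, numpy 2.4.6, pandas 2.3.3 and statsmodels 0.14.6 (loess, span 0.3) were used, and the ratio was tested on simulated data. The simulation held only brighter genes with little noise and changes well past 2-fold. It therefore checks the calculation and says nothing of dim genes or of those near the 2-fold limit.

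Members and the 34 gene lists (567 genes, 353 of them members) were chosen with earlier results of these data known. Named genes were the 6 markers of the step (Fos, Zfp36, Edn1, Cxcl1, Nfkbie and Icam1), the 15 largest rises and falls with both signals raised to 102, up to 4 called genes per list and direction, and the genes at each limit; 5 more each way under the floor were allowed and 0 existed. Other list members are given as examples of their lists, and further called genes were named after their values were seen. Promoter sequences are from RefSeq. The number of arrays, 1 per time, limits the precision.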

Additional observations from a re-analysis of the deposited data

How the results depend on the processing

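The counts of genes higher and lower, 36 and 36, did not move with floors at the 20th or 50th percentile or without a floor, and stayed within 1.5 times under the 3 scalings, another choice of probe set or the mean of probe sets. The counts were 19 and 22 with both signals raised to the 75th percentile, and 14 and 18 for genes that reached it on both arrays. They were 17 and 21 with members at the 85th percentile, 9 and 10 at 3-fold and 102 and 179 at 1.5-fold. Chosen after seeing the data, both signals raised to the 75th percentile gave 20 and 19 after median centring, and 21 and 15 after either quantile normalization or loess. All 36 rises and 25 of the 36 falls were called under quantile normalization and under loess, and 31 falls under median centring. Of 44 called named genes 41 kept the call under all 3 scalings, and 28 under those, the floors and both other uses of probe sets; the counts at other folds and member limits were not followed gene by gene; 6 list medians changed sign under a scaling, all of them within 0.07 of 0 under every one (CXC chemokines, NF-kB inhibitors, contractile, stress, ribosomal and reference genes). No paired analysis was possible because each group holds 1 array. Ratios of genes with a signal under 102 on 1 of the arrays cannot be judged for noise from these members, since such a gene entered through its other array.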

Other observations

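Parp9 and Dtx3l, whose proteins form a complex in the DNA damage and interferon response, both rose over the step, from 58.5 to 127 and from 44.8 to 117, each from a low first signal. Slc2a6, encoding a glucose transporter, went from 42.9 to 114 and to 233 at 12 h. These genes and those below were named after their values were seen. Among the rises, the 0.5 h signal lay farthest under the basal one, as a ratio, in Kcnj11, Septin10 and Yars. A low 0.5 h signal favours a call as a rise, so such a dip is partly selected by the rule. The median of all probe sets was 22.1 on the basal array and 21.3 at 0.5 h. Yars, a tRNA synthetase gene, was at 267, 157, 334 and 218 on the 4 arrays, Septin10 at 95.8, 41.0, 120.1 and 86.9, and Kcnj11, a potassium channel gene, at 143, 32.6, 136 and 149.

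Of 895 probe sets that reached 102 and name no gene or several, 3 were higher and 1 was lower by 2-fold or more (0.447%). The probe set 1450173_at was at 120.0, 145, 552 and 250.3 on the 4 arrays, and 1441793_at at 747, 742, 301 and 331.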
